A study of Mus musculus with 15 samples.

Results

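Axon guidance ligands and receptors were followed in murine embryonic stem cells (ESC) after knockdown (kd) of Smarcb1, which belongs to the core of the chromatin remodeller BAF. Members were all listed genes whose symbol begins with Sema3 to Sema7, Plxn, Epha, Ephb, Efna or Efnb, together with the numbered Ntn, Slit, Robo and Nrp genes, Unc5a to Unc5d and Dcc. This rule gave 72 of the 55228 listed genes, 69 of them protein-coding and 3 of them antisense RNAs of the Plxna4 locus. A mean of at least 10 reads over the libraries was reached by 53 members, and these were followed. The followed members closest to this limit were Plxna4 with a mean of 13.7 reads and Slit1 with 15.5, and those just under it were Robo3 with 9.0 and Epha6 with 8.6. They comprised 16 of 20 semaphorins, 8 of 12 plexin entries, 1 of 2 neuropilins, 5 of 5 ephrin-A and 3 of 3 ephrin-B ligands, 6 of 9 EphA and 4 of 5 EphB receptors, 3 of 4 netrins, 2 of 5 netrin receptors, 3 of 3 Slits and 2 of 4 Robo receptors.

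RNA-seq was performed on the line 81K1, which was derived from OG2 ESC and carries in its Rosa26 locus a cassette from which doxycycline induces an shRNA that targets Smarcb1. Cells grew on gelatine in medium with serum and LIF, and the kd groups received 1 µg doxycycline per ml daily for 48 h, 72 h or 240 h. The control groups (ctrl), sampled at 48 h and 240 h, carried the same cassette and received no doxycycline. Each of the 5 groups held 3 libraries. All 15 libraries came from this single line, a line given doxycycline without the shRNA was not analysed here, and no 72 h ctrl was analysed here, so that 72 h kd was compared with 48 h ctrl and a difference of age cannot be told apart from the knockdown there. The labels do not say that libraries came from separate cultures, so p-values measure the spread between these libraries, which may be technical. Because RNA was taken from bulk cultures, fewer cells that express a gene and less RNA per cell cannot be told apart.

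Guidance cues act in ligand and receptor pairs. Semaphorins bind plexins, in the case of most secreted class 3 members together with a neuropilin as co-receptor, ephrins bind Eph receptor tyrosine kinases on neighbouring cells, netrins bind Dcc and Unc5 receptors, and Slits bind Robo receptors. They are best known for steering growing axons, and outside the nervous system they act in vessel growth, cell sorting and tissue boundaries.

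Library totals lay between 11074998 and 14515300 reads. Values are given as RPM, the reads of a gene scaled to a library total of 1000000, recovered from the deposited FPKM, and a gene was called where the limma adjusted p was under 0.05 and the log2 change of RPM + 0.1 was beyond 0.58 in size. Smarcb1 had 84.7, 86 and 97.8 RPM in the 48 h ctrl libraries and 82.2, 88.3 and 84.5 RPM in the 240 h ctrl libraries. It had 12.5, 20.4 and 15.4 RPM at 48 h kd, 13.4, 15.9 and 12.7 RPM at 72 h kd and 17.9, 15.4 and 15.9 RPM at 240 h kd, so that 18%, 15.7% and 19.3% of the mean control level remained. The kd libraries were below every ctrl library at each time. Replicate 2 of 48 h kd stood apart from its group, with 2.53% of its reads in mitochondrial genes, the highest share of all libraries, and its counts gave chi-square values of 9.05 and 11.2 per degree of freedom against the other replicates, which gave 1.5 between them. Replicate 3 of 240 h ctrl had the lowest mitochondrial share, 0.507%, and chi-square values of 5.0 and 8.87 against its partners, which gave 2.23 between them. Without the former library 15 followed members were called at 48 h in place of 16, beside 8.97% of all genes in place of 9.2%. Without the latter 25 were called at 240 h in place of 24, beside 17.2% of all genes in place of 17.1%.

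On the RPM scale the share of guidance genes that changed was above that of all genes in each knockdown comparison. At 48 h, 16 of the 53 followed members (30.2%) were called, 6 higher and 10 lower, beside 9.2% of all 16370 genes tested (4.36% higher and 4.84% lower). At 72 h, 20 members (37.7%) were called, 13 higher and 7 lower, beside 22.3% of all genes (12.1% higher and 10.2% lower). At 240 h, 24 members (45.3%) were called, 15 higher and 9 lower, beside 17.1% of all genes (9.11% higher and 8.03% lower). The median log2 change of the followed members was 0.07, 0.22 and 0.03 at the respective times and that of all genes 0.01, 0.01 and 0.00. On the log2(FPKM + 0.1) scale, which kept 19 to 22 of the followed members with a mean of at least 0.5 FPKM, limma called 0 of 20 members at 48 h (10 at an unadjusted p under 0.05), 4 of 19 at 72 h and 7 of 22 at 240 h, beside 3.99%, 13.5% and 8.91% of all genes on that scale. The 72 h and 48 h comparisons share the 48 h ctrl libraries. With the 240 h ctrl as control for 72 h kd, 23 members were called, 15 higher and 8 lower, beside 25.8% of all genes, and 16 of these were among the 20, with the calls of Sema5a, Sema6b, Sema4g and Plxna1 lost. Under median centring 20 members were again called at 72 h, 18 of them shared with the uncentred values, with 11 higher and 9 lower and 22.3% of all genes called.

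The deposited FPKM were scaled to whole gene spans with introns, and guidance genes vary widely in length, from 4.64 to 737.79 kb with a median of 29.0 kb beside 25.1 kb for all protein-coding genes tested. Among the 19 followed members that span at least 100 kb, 9, 8 and 12 were called at 48 h, 72 h and 240 h (47.4%, 42.1% and 63.2%). Of all 2068 genes of that length tested, 15.8%, 27.4% and 25.9% were called.

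**Figure D1:**
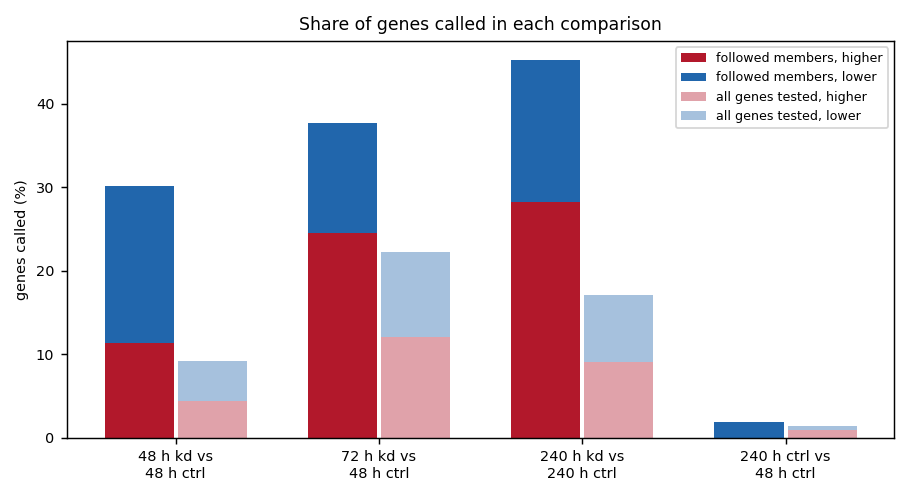
Share of genes called (%, vertical axis) in each comparison for the 53 followed guidance members (dark bars) and all 16370 genes tested (pale bars), divided into genes higher (red) and lower (blue) in the first-named group. The members reached 30.2%, 37.7% and 45.3% in the knockdown comparisons, beside 9.2%, 22.3% and 17.1% of all genes, and the controls of 240 h and 48 h differed in few genes of either set.

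Of the called members, 10 were called both at 48 h and at 240 h, comparisons that have no library in common, which is 62.5% of the 16 members called at 48 h and 41.7% of the 24 called at 240 h. Over all genes 876 (5.35% of those tested) were called at both times, 58.2% of the 48 h calls and 31.2% of the 240 h calls, and 93.2% of these had the same direction. All 10 members had the same direction at both times. The 4 that rose were the ligands Sema3e, Sema4c, Sema6a and Efnb2, and the 6 that fell were the ligand Slit2 and the receptors Robo4, Epha7, Plxna2, Nrp2 and Ephb3. The 48 h calls of Sema4c, Sema6a, Slit2 and Ephb3 were each lost when certain single libraries were left out, as given for each gene further on.

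**Figure D2:**
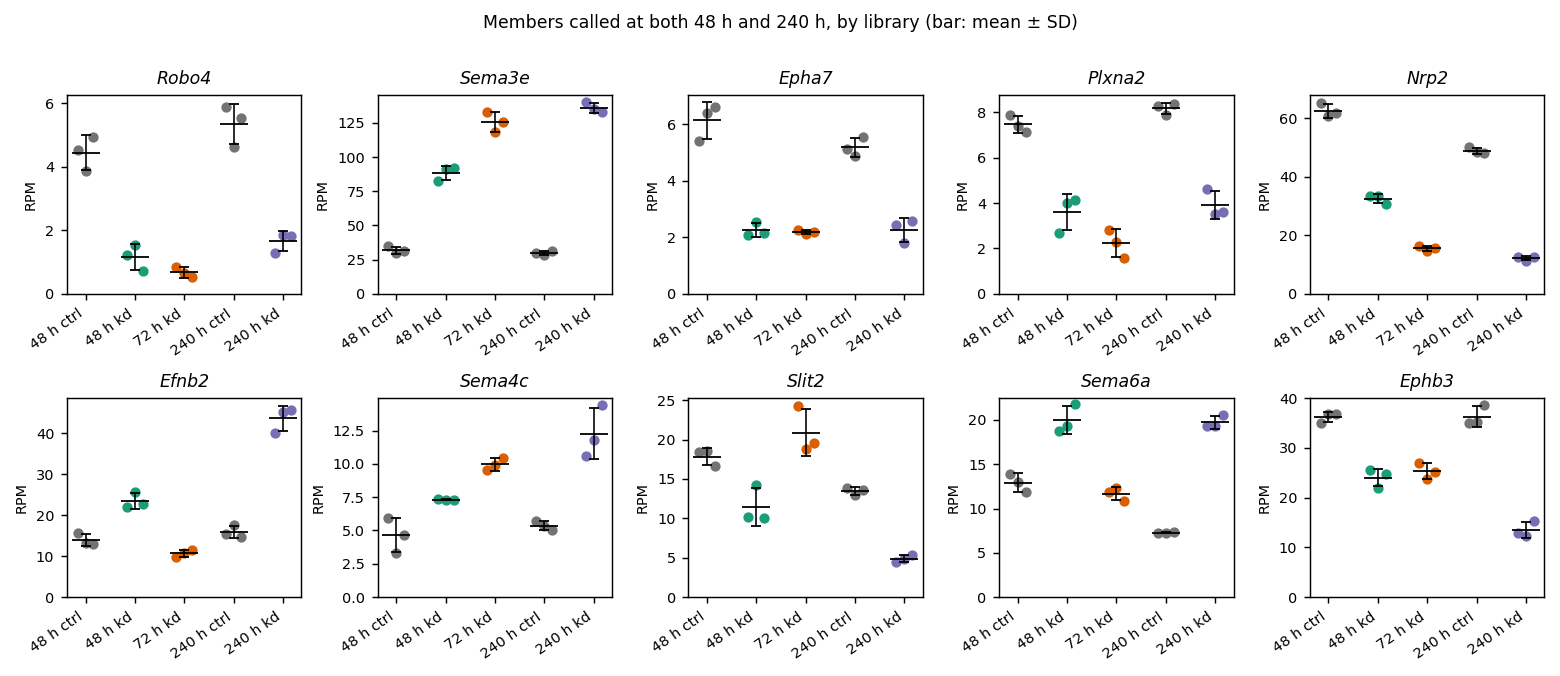
RPM (vertical axes, each starting at 0) in each of the 15 libraries for the 10 members called at both 48 h and 240 h, by group, with the mean and SD as black bars (n = 3 libraries per group). Sema3e lay between 28.3 and 34.9 RPM in the control groups and between 133 and 139.9 RPM at 240 h kd, while Nrp2 lay between 48.3 and 50.1 RPM in the 240 h ctrl and between 11.4 and 12.7 RPM in the 240 h kd libraries. Efnb2, Slit2 and Sema6a did not keep their 48 h direction at 72 h.

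The 5 of these genes that ranked highest by the smaller of their 2 changes, at 48 h and 240 h, were Robo4, Sema3e, Epha7, Plxna2 and Nrp2, and they are shown for that reason. The 250 bases before their annotated start are shown from the RefSeq promoter table (GRCm38.p6), 5′ to 3′ on the gene's strand, with matches to the GC box GGGCGG in capitals on either strand. Matches can overlap each other.
Robo4, chr9:37401722-37401971, plus strand: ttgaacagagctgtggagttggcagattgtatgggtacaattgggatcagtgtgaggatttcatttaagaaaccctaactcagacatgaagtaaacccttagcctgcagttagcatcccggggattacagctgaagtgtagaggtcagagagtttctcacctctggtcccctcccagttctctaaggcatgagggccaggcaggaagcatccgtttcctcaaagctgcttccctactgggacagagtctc
Sema3e, chr5:14025026-14025275, plus strand: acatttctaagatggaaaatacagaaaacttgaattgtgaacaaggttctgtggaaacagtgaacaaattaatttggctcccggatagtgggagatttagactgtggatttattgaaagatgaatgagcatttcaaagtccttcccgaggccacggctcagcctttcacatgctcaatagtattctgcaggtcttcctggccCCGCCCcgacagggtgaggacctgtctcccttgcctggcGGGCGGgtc
Epha7, chr4:28812881-28813130, plus strand: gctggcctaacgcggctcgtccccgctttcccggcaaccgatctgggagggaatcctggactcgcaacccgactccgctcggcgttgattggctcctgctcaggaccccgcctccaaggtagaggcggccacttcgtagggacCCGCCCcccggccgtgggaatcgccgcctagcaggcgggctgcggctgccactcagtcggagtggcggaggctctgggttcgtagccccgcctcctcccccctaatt
Plxna2, chr1:194619579-194619828, plus strand: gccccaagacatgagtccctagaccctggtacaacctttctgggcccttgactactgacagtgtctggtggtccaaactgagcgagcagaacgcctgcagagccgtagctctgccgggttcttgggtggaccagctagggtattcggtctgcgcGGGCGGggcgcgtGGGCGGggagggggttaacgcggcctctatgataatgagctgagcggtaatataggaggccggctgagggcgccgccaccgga
Nrp2, chr1:62703067-62703316, plus strand: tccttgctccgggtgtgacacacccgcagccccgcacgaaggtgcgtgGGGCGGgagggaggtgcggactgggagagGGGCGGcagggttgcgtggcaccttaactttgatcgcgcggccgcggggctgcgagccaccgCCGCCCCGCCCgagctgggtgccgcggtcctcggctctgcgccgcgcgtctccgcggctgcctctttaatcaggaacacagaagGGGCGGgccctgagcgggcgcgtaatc

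These windows differed widely in base composition. The Robo4 window held 2 CpG dinucleotides and no GC box, that of Sema3e 7 CpG and 2 GC boxes, and those of Plxna2, Epha7 and Nrp2 18, 25 and 32 CpG with 2, 1 and 5 GC boxes. Over 32851 RefSeq windows of the same length, the median was 6 CpG with quartiles of 2 and 16, and 32.7% held a GC box. None of the 5 held a TATA box (TATAAA, in 12.4% of all windows), an E-box (CACGTG, in 6.02%) or an AP-1 motif (TGANTCA, in 6.75%), searched on both strands. A match describes letters and not a bound site. The start used for Plxna2 lay 1611 bases from the edge of the deposited gene span, and those of the other 4 genes within 75 bases. The genes' deposited spans are chr9:37401897-37415115 (Robo4), chr5:14025276-14256689 (Sema3e), chr4:28813131-28967499 (Epha7), chr1:194618218-194816869 (Plxna2) and chr1:62703285-62818695 (Nrp2).

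Among semaphorins, Sema3e, a secreted class 3 ligand that binds Plxnd1 directly, rose most. Sema3e had 34.9, 29.8 and 31.1 RPM in 48 h ctrl, 82.8, 91.2 and 91.7 RPM in 48 h kd and 133, 118 and 126 RPM in 72 h kd. At 240 h it had 30.1, 28.3 and 31.2 RPM in ctrl and 139.9, 135 and 133 RPM in kd. All kd libraries lay above all ctrl libraries, and the mean level was 2.77, 3.93 and 4.55 times the control at 48 h, 72 h and 240 h. The log2 changes were 1.47 ± 0.073 (SE, limma adjusted p = 5.4e-08), 1.97 ± 0.058 (SE, limma adjusted p = 8.0e-19) and 2.18 ± 0.055 (SE, limma adjusted p = 1.1e-14). A gene that overlaps its span, Gm4128, had a mean of 24 reads.

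Sema4c, a transmembrane class 4 ligand of plexin-B2, had 5.91, 3.34 and 4.68 RPM in 48 h ctrl, 7.38, 7.25 and 7.31 RPM in 48 h kd and 9.53, 9.88 and 10.5 RPM in 72 h kd. The 240 h ctrl libraries had 5.71, 5.36 and 5.0 RPM and the 240 h kd libraries 10.6, 11.8 and 14.4 RPM. No ctrl library reached the kd libraries at any time. The log2 change was 0.68 ± 0.19 (SE, limma adjusted p = 0.0176) at 48 h, 1.12 ± 0.16 at 72 h and 1.17 ± 0.13 (SE, limma adjusted p = 1.3e-06) at 240 h. The call at 48 h was lost without replicate 2 of the 48 h ctrl, the lowest control, where the change was 0.47 (limma adjusted p = 0.0782), and without replicate 3 of 48 h kd (limma adjusted p = 0.0536). The overlapping gene D430040D24Rik had a mean of 14.3 reads beside 101 for Sema4c. Sema4b, of the same class, had 89.7, 81.4 and 91.8 RPM in 48 h ctrl and 201, 183 and 188 RPM in 72 h kd, beside 95.5, 101 and 102 RPM in 240 h ctrl and 165, 161 and 153 RPM in 240 h kd. It was higher in each kd library than in any control, by 1.12 ± 0.048 (SE, limma adjusted p = 9.8e-16) at 72 h and 0.68 ± 0.048 (SE, limma adjusted p = 4.2e-09) at 240 h, and its 48 h change of 0.42 ± 0.058 was under the minimum for a call.

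Sema6a, a transmembrane ligand of class A plexins, had 13.9, 13 and 11.8 RPM in 48 h ctrl, 18.8, 19.4 and 21.8 RPM in 48 h kd and 11.9, 12.3 and 10.9 RPM in 72 h kd. Values at 240 h were 7.24, 7.23 and 7.34 RPM in ctrl and 19.4, 19.3 and 20.6 RPM in kd. The kd libraries were above the ctrl libraries at 48 h and 240 h and overlapped them at 72 h, with log2 changes of 0.62 ± 0.10 (SE, limma adjusted p = 6.1e-04), 1.43 ± 0.095 and -0.14 ± 0.10. Without replicate 3 of 48 h ctrl or of 48 h kd the 48 h change was 0.56 and no longer called. Sema6a was also the only followed member called between the control groups, lower at 240 h ctrl than at 48 h ctrl with a change of -0.82 ± 0.11 (SE, limma adjusted p = 2.2e-04), beside 1.36% of all genes called in that comparison (0.867% higher and 0.495% lower). With 1 of 53 members, this comparison lay near the share of all genes. Without a trend in the prior variance limma called no member (17 at an unadjusted p under 0.05) and none of all 16370 genes.

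Sema3c, a secreted ligand that signals through neuropilins and plexins, had 1.13, 0.974 and 1.25 RPM in 240 h ctrl and 4.32, 4.34 and 3.75 RPM in 240 h kd. The 48 h ctrl, 48 h kd and 72 h kd libraries all lay between 0.972 and 1.48 RPM, so that the 240 h kd libraries stood alone above the rest. The change at 240 h was 1.80 ± 0.21 (SE, limma adjusted p = 2.0e-06). Sema5b, a transmembrane semaphorin with thrombospondin repeats, went the other way, with 36.2, 32.6 and 30.4 RPM in 240 h ctrl and 19, 16.1 and 16.1 RPM in 240 h kd. Its 240 h kd libraries were the lowest of all, with a change of -0.95 ± 0.088 (SE, limma adjusted p = 1.2e-07), whereas the 48 h kd libraries with 40.1, 51.8 and 44.7 RPM were above the 48 h ctrl libraries with 33.8, 28.9 and 29.9 RPM, a log2 change of 0.56 ± 0.094 that was not called.

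Sema5a, Sema4f and Sema4g were called at 72 h and at no other time, as was Sema6b, described further on. Sema5a, related to Sema5b, had 7.0, 7.13 and 7.42 RPM in 48 h ctrl and 3.59, 4.13 and 4.75 RPM in 72 h kd. It fell in all 3 libraries, with a change of -0.78 ± 0.15 (SE, limma adjusted p = 7.0e-05), and against the 240 h ctrl the change was -0.29 (limma adjusted p = 0.160). Sema4f, a transmembrane class 4 ligand, had 4.96, 6.22 and 6.01 RPM in 48 h ctrl and 11.1, 8.82 and 9.34 RPM in 72 h kd, with all kd libraries above all ctrl libraries and a change of 0.76 ± 0.13 (SE, limma adjusted p = 3.1e-05), or 1.19 against the 240 h ctrl. Sema4g, of the same class, had 8.68, 9.02 and 8.13 RPM in 48 h ctrl and 11.6, 15.4 and 12.7 RPM in 72 h kd. These did not overlap, yet its change of 0.61 ± 0.11 (SE, limma adjusted p = 7.2e-05) dropped under the minimum in 6 alternatives, among them without 72 h kd replicate 2, where it was 0.49, and without 48 h ctrl replicate 3, where it was 0.56.

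Semaphorin receptors changed in both directions. Nrp2, the co-receptor for class 3 semaphorins and for vascular endothelial growth factors, had 65.3, 60.6 and 61.8 RPM in 48 h ctrl, 33.4, 33.3 and 30.9 RPM in 48 h kd and 16.3, 14.7 and 15.7 RPM in 72 h kd. After 240 h, 50.1, 48.3 and 48.3 RPM were counted in ctrl and 12.7, 11.4 and 12.6 RPM in kd. Each kd library was below every ctrl library and 52%, 24.9% and 25% of the control mean remained. The log2 changes were -0.94 ± 0.064 (SE, limma adjusted p = 6.9e-07), -2.0 ± 0.065 (SE, limma adjusted p = 5.8e-18) and -2.0 ± 0.074 (SE, limma adjusted p = 1.2e-12). Nrp1, the other neuropilin, had at most 19 reads in any library and was not tested.

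Plxna2, a receptor of Sema6a, had 7.87, 7.4 and 7.15 RPM in 48 h ctrl, 2.69, 4.01 and 4.15 RPM in 48 h kd and 2.81, 2.27 and 1.58 RPM in 72 h kd. At 240 h it had 8.28, 7.88 and 8.36 RPM in ctrl and 4.63, 3.51 and 3.6 RPM in kd. The kd and ctrl libraries did not overlap at any time, on 21 to 108 reads per library. The changes were -1.05 ± 0.18 (SE, limma adjusted p = 9.3e-04), -1.74 ± 0.19 (SE, limma adjusted p = 2.0e-08) and -1.05 ± 0.15 (SE, limma adjusted p = 1.5e-05). Plxnc1, the receptor of Sema7a, had 6.12, 5.41 and 3.97 RPM in 48 h ctrl, 3.3, 3.5 and 2.89 RPM in 48 h kd and 2.27, 2.27 and 2.49 RPM in 72 h kd. These kd libraries were all below the controls, with changes of -0.65 ± 0.19 (SE, limma adjusted p = 0.0255) and -1.09 ± 0.19 (SE, limma adjusted p = 2.3e-05), and at 240 h the kd libraries also lay below the controls, with a change of -0.14 ± 0.14 that was not called. The 48 h call was lost without 48 h ctrl replicate 1 or 2 or 48 h kd replicate 3, where the change lay between -0.60 and -0.51.

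Plxnd1, the receptor of Sema3e, was called at 72 h and 240 h only. It had 3.35, 4.78 and 5.39 RPM in 48 h ctrl, 4.34, 5.12 and 4.79 RPM in 48 h kd and 11, 9.71 and 10.0 RPM in 72 h kd. The 240 h ctrl libraries had 4.5, 5.03 and 4.14 RPM and the 240 h kd libraries 7.44, 7.58 and 8.81 RPM. The groups overlapped at 48 h, with a change of 0.10 ± 0.19, and were apart at 72 h and 240 h, with 1.19 ± 0.15 (SE, limma adjusted p = 3.4e-07) and 0.79 ± 0.14 (SE, limma adjusted p = 2.0e-04). Plxna1, which pairs with neuropilins, had 178, 179 and 166 RPM in 48 h ctrl and 281, 264 and 279 RPM in 72 h kd. Its 72 h kd libraries were above the controls by 0.66 ± 0.040 (SE, limma adjusted p = 8.3e-13), and by 0.39 against the 240 h ctrl, which is under the minimum. The antisense gene Gm26811, with a mean of 1781 reads, overlaps Plxna1, and since the use of strand in counting is not given in the sources used here, the value of Plxna1 is uncertain.

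**Figure D3:**
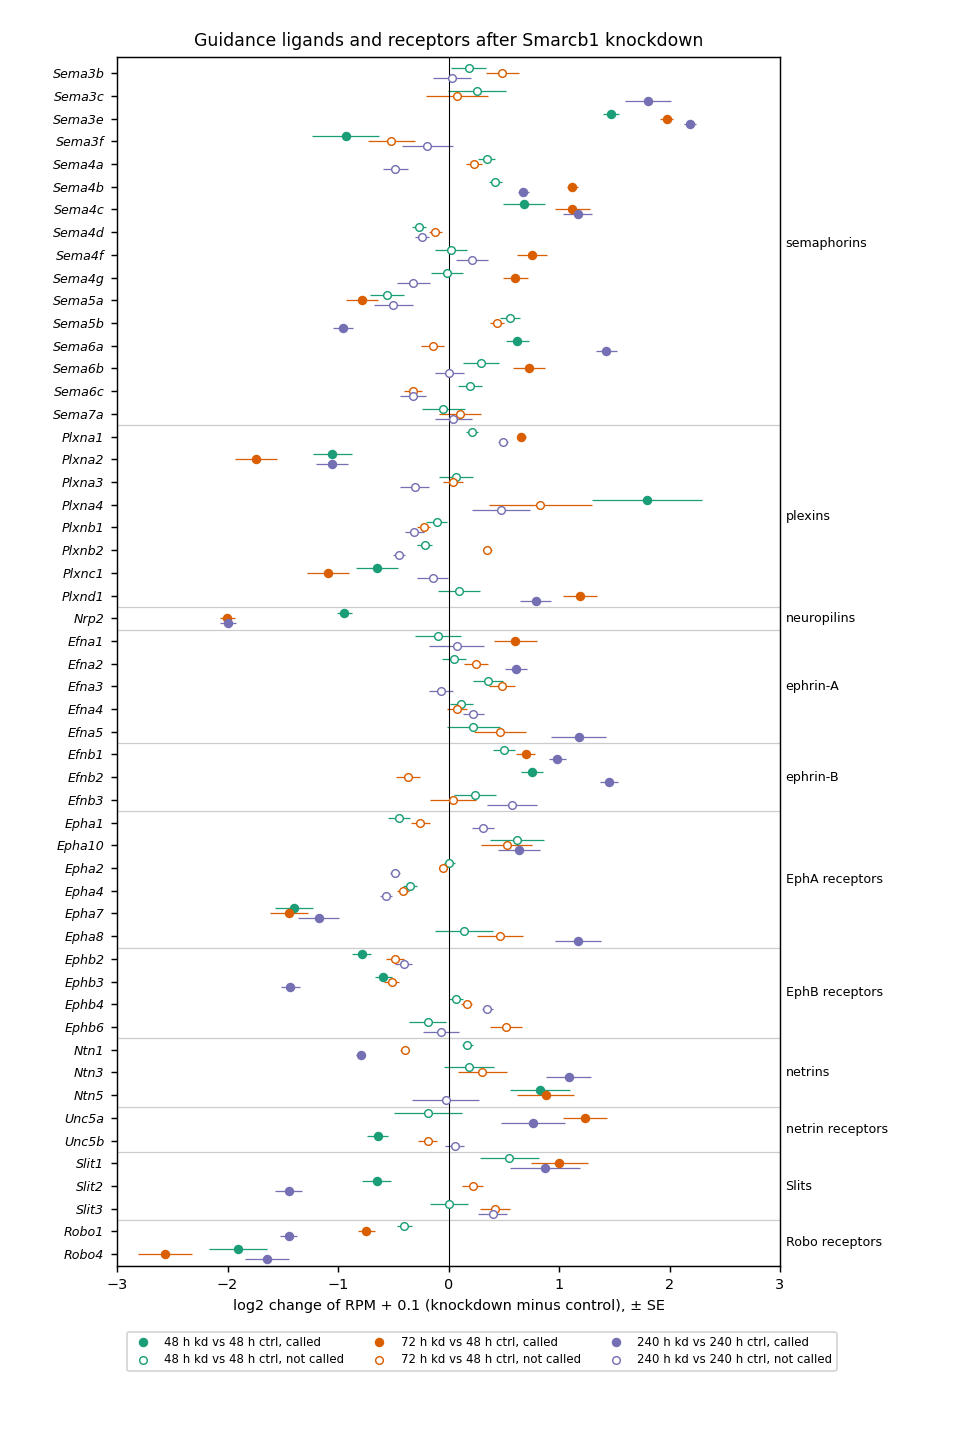
Log2 change of RPM + 0.1 (horizontal axis, knockdown minus control, with SE bars) of the 53 followed members, grouped by family, at 48 h (green), 72 h (orange, against 48 h ctrl) and 240 h (violet). Filled points were called. Sema3e and Nrp2 stand out at the right and left, and in the ephrin-B family the called points lie to the right while those of EphB and Robo receptors lie to the left.

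Both ephrin-B ligands that were called rose, and the EphB receptors that were called fell. Efnb2, a transmembrane ligand of EphB receptors, had 15.5, 13.2 and 12.9 RPM in 48 h ctrl, 21.9, 25.8 and 22.8 RPM in 48 h kd and 9.77, 10.9 and 11.5 RPM in 72 h kd. Values at 240 h were 15.4, 17.5 and 14.7 RPM in ctrl and 40.0, 45.3 and 45.6 RPM in kd. It was higher in every kd library at 48 h and 240 h, by 0.76 ± 0.10 (SE, limma adjusted p = 1.7e-04) and 1.46 ± 0.083 (SE, limma adjusted p = 2.7e-10), and lower in every 72 h kd library, with a change of -0.37 ± 0.11, which was not called. Efnb1, of the same family, had 13.9, 16.2 and 13.1 RPM in 48 h ctrl and 22, 23.7 and 24.3 RPM in 72 h kd, beside 14.8, 14.5 and 15.2 RPM in 240 h ctrl and 27.8, 29.7 and 30.9 RPM in 240 h kd. The kd libraries were the higher ones throughout, by 0.70 ± 0.089 (SE, limma adjusted p = 3.0e-07) and 0.98 ± 0.078 (SE, limma adjusted p = 1.8e-08).

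Ephb3, a receptor of ephrin-B ligands, had 35, 36.8 and 36.8 RPM in 48 h ctrl, 25.4, 22 and 24.7 RPM in 48 h kd and 27, 23.8 and 25.2 RPM in 72 h kd. After 240 h, 34.9, 35.2 and 38.7 RPM were counted in ctrl and 12.8, 12.3 and 15.2 RPM in kd. All kd libraries were below all ctrl libraries, with changes of -0.59 ± 0.077 (SE, limma adjusted p = 1.3e-04), -0.52 ± 0.066 and -1.43 ± 0.089 (SE, limma adjusted p = 8.4e-10). The 48 h value lay close to the minimum and was not called without 48 h ctrl replicate 2 or 3 or 48 h kd replicate 2, where it was -0.58, -0.58 and -0.53. Ephb2, a further receptor of this class, had 30.6, 25.5 and 29.1 RPM in 48 h ctrl and 16.7, 16.3 and 16.3 RPM in 48 h kd. Its 48 h kd libraries were the lower ones, with a change of -0.79 ± 0.087 (SE, limma adjusted p = 3.8e-05), and its later changes of -0.49 ± 0.079 and -0.41 ± 0.077 were not called. Epha7, a receptor of ephrin-A ligands, had 5.4, 6.4 and 6.62 RPM in 48 h ctrl, 2.08, 2.56 and 2.17 RPM in 48 h kd and 2.27, 2.11 and 2.18 RPM in 72 h kd. At 240 h it had 5.15, 4.87 and 5.55 RPM in ctrl and 2.43, 1.79 and 2.57 RPM in kd. The groups were apart at each time, on 24 to 75 reads per library, with -1.40 ± 0.18 (SE, limma adjusted p = 9.8e-05), -1.44 ± 0.17 (SE, limma adjusted p = 1.1e-07) and -1.18 ± 0.18 (SE, limma adjusted p = 5.5e-05).

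Of the netrin genes, Ntn1, the secreted ligand of Dcc and Unc5 receptors, had 295, 271 and 293 RPM in 48 h ctrl, 328, 312 and 325 RPM in 48 h kd and 214, 212 and 226 RPM in 72 h kd. The 240 h ctrl libraries had 241, 246 and 232 RPM and the 240 h kd libraries 139.7, 136 and 138 RPM. The kd libraries lay slightly above the controls at 48 h and below them at 72 h, with changes of 0.17 ± 0.051 and -0.39 ± 0.040 that were not called. At 240 h Ntn1 was lower in all kd libraries, with a change of -0.80 ± 0.043 (SE, limma adjusted p = 1.2e-10). Unc5a, a netrin receptor linked to repulsion, had 2.19, 1.62 and 2.03 RPM in 48 h ctrl and 5.16, 3.81 and 5.2 RPM in 72 h kd, beside 0.724, 0.974 and 1.72 RPM in 240 h ctrl and 1.97, 1.79 and 1.91 RPM in 240 h kd. Its kd libraries were above the controls in both cases, by 1.23 ± 0.20 (SE, limma adjusted p = 9.3e-06) and 0.76 ± 0.29 (SE, limma adjusted p = 0.0412). Against the 240 h ctrl the 72 h change was 2.03. The 240 h call was lost without any 1 of 5 libraries, 240 h ctrl replicates 1 and 2 and each 240 h kd replicate, where the change lay between 0.51 and 0.80. Dcc itself had 1 to 16 reads per library and was not tested.

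Slit2, a secreted repellent, had 18.4, 18.6 and 16.6 RPM in 48 h ctrl, 10.2, 14.2 and 10.0 RPM in 48 h kd and 24.3, 18.9 and 19.5 RPM in 72 h kd. Values at 240 h were 13.8, 12.9 and 13.6 RPM in ctrl and 4.4, 4.89 and 5.36 RPM in kd. It was below the controls at 48 h and 240 h, with changes of -0.65 ± 0.13 (SE, limma adjusted p = 0.00302) and -1.45 ± 0.12 (SE, limma adjusted p = 3.2e-08), while the 72 h kd libraries lay above the 48 h ctrl, by 0.22 ± 0.092, which was not called. The 48 h change was -0.57 without 48 h kd replicate 1 and -0.56 without replicate 3, both short of a call. Its receptor Robo1 had 50.5, 50.3 and 49.6 RPM in 48 h ctrl, 40.3, 38.8 and 35.1 RPM in 48 h kd and 28.4, 26.2 and 35.9 RPM in 72 h kd. After 240 h, 54.6, 47.9 and 51.2 RPM were counted in ctrl and 18.9, 16.9 and 20.5 RPM in kd. No kd library reached a control, and the change was -0.40 ± 0.067 at 48 h, not called, -0.74 ± 0.079 (SE, limma adjusted p = 1.6e-08) at 72 h and -1.45 ± 0.079 (SE, limma adjusted p = 1.5e-10) at 240 h. Robo4, best known from endothelial cells, had 4.52, 3.88 and 4.95 RPM in 48 h ctrl, 1.22, 1.54 and 0.722 RPM in 48 h kd and 0.86, 0.648 and 0.527 RPM in 72 h kd. At 240 h it had 5.87, 4.63 and 5.55 RPM in ctrl and 1.29, 1.86 and 1.84 RPM in kd, on 7 to 27 reads per kd library and 43 to 73 per ctrl library. The groups were far apart at each time, with -1.90 ± 0.26 (SE, limma adjusted p = 2.0e-04), -2.56 ± 0.24 (SE, limma adjusted p = 2.6e-09) and -1.64 ± 0.20 (SE, limma adjusted p = 3.4e-06).

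12 further members were called in 14 instances, with absolute log2 changes between 0.60 and 1.80 and means of 13.7 to 218 reads. At 240 h the receptors Epha8 and Epha10, the ephrins Efna2 and Efna5, and Ntn3 rose, by 1.17, 0.64, 0.61, 1.18 and 1.09. At 72 h the ligands Efna1 and Sema6b rose, by 0.60 and 0.73, and against the 240 h ctrl the change of Sema6b was 0.55, under the minimum. Slit1 rose at 72 h, by 1.0, and at 240 h, by 0.88, and Ntn5 rose at 48 h and 72 h, by 0.83 and 0.88. At 48 h Plxna4 rose by 1.80, from 1 to 10 reads in the controls, or by 1.09 without 48 h ctrl replicate 2, while Unc5b and Sema3f changed by -0.64 and -0.93, with -0.61 for Sema3f without 48 h kd replicate 3. Among these the calls of Efna1, Epha10, Sema3f, Slit1 at 240 h and Ntn5 at 48 h were each lost when a single library was left out, with limma adjusted p of up to 0.0791, 0.0719, 0.145, 0.109 and 0.130. Plxna4 at 48 h was not called without a filter on low values (limma adjusted p = 0.265). Ntn3 overlaps Tbc1d24, which had a mean of 370 reads against 33.3 for Ntn3, and Ntn5 overlaps Sec1, with 42.4 against 18.7, so both are uncertain.

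The remaining 17 followed members were never called after knockdown, with log2 changes between -0.56 and 0.58. Epha2, the EphA receptor typical of epithelia and ESC, had the highest level per length of all followed members, 9.72 FPKM on average, and ranged from 214 ± 7.78 RPM in 240 h kd to 301 ± 12 RPM in 240 h ctrl (mean ± SD, n = 3). Plxnb2, the receptor of Sema4c, averaged 4.65 FPKM, from 93.1 ± 3.65 RPM in 240 h kd to 149 ± 3.21 RPM in 72 h kd, with 127 ± 9.5 RPM in 240 h ctrl. Efna4, which overlaps an antisense gene with more reads than its own, averaged 3.10 FPKM, Ephb4, the receptor of Efnb2, 2.24 FPKM, Sema6c 1.82 FPKM, Efnb3 0.649 FPKM and Slit3, the longest Slit gene, 0.0104 FPKM. In 240 h ctrl and 240 h kd these 5 had 13.5 ± 0.436 and 15.8 ± 1.1, 52.8 ± 0.81 and 67.4 ± 1.79, 30.0 ± 6.53 and 23.6 ± 1.02, 3.55 ± 0.867 and 5.46 ± 1.86, and 5.33 ± 0.0592 and 7.08 ± 0.747 RPM. The libraries of the 2 groups overlapped for Sema6c and Efnb3 and were apart for Efna4, Ephb4 and Slit3, whose kd libraries were the higher ones. The other 10 were Epha1, Epha4, Ephb6, Efna3, Plxnb1, Plxna3, Sema4a, Sema3b, Sema4d and Sema7a. Among the members that were called, Plxna1 (4.98 FPKM) and Sema4b (3.30 FPKM) had the highest level per length, and the median of all 53 was 0.346 FPKM.

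The knockdown effect itself differed between 240 h and 48 h for 16 followed members (9 with a higher and 7 with a lower value at 240 h), called by the same rule on the interaction of treatment and time, beside 10.5% of all genes (5.4% higher and 5.09% lower). Sema5b and Ntn1 were the members whose point estimates had opposite signs and a called fall at 240 h, with differences of -1.51 ± 0.14 (SE, limma adjusted p = 3.8e-07) and -0.97 ± 0.062 (SE, limma adjusted p = 5.2e-09). For Robo1, Nrp2, Ephb3 and Slit2 the change was more negative at 240 h, with differences of -1.05 ± 0.11, -1.05 ± 0.091, -0.84 ± 0.12 and -0.80 ± 0.18. For Sema3e and Efnb2 the rise was larger. For Sema6a the change against the control was larger as well, but its kd libraries had similar RPM at both times. Its control was lower at 240 h than at 48 h, as given above. For Epha7, Plxna2 and Robo4 the difference between the times was not called (limma adjusted p = 0.571, 0.994 and 0.628).

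**Figure D4:**
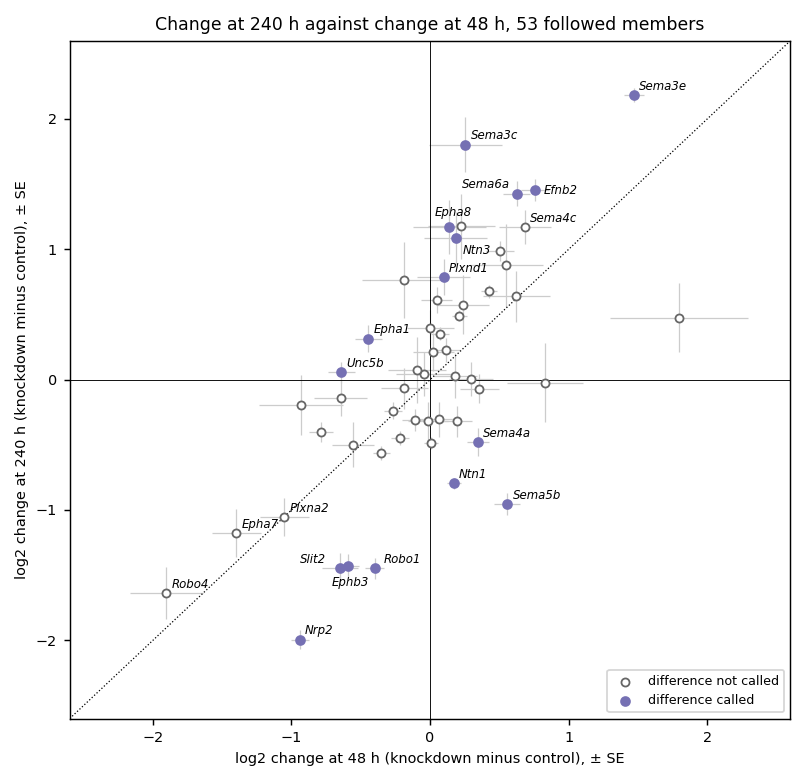
Log2 change at 240 h (vertical axis) against log2 change at 48 h (horizontal axis) of the 53 followed members, with SE bars and the line of equal change dotted. Violet points mark the 16 members whose difference between the times was called. Sema3e lies at the upper right, Nrp2 and Robo4 at the lower left, and Ntn1 and Sema5b below the horizontal axis on its right side.

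**Figure D5:**
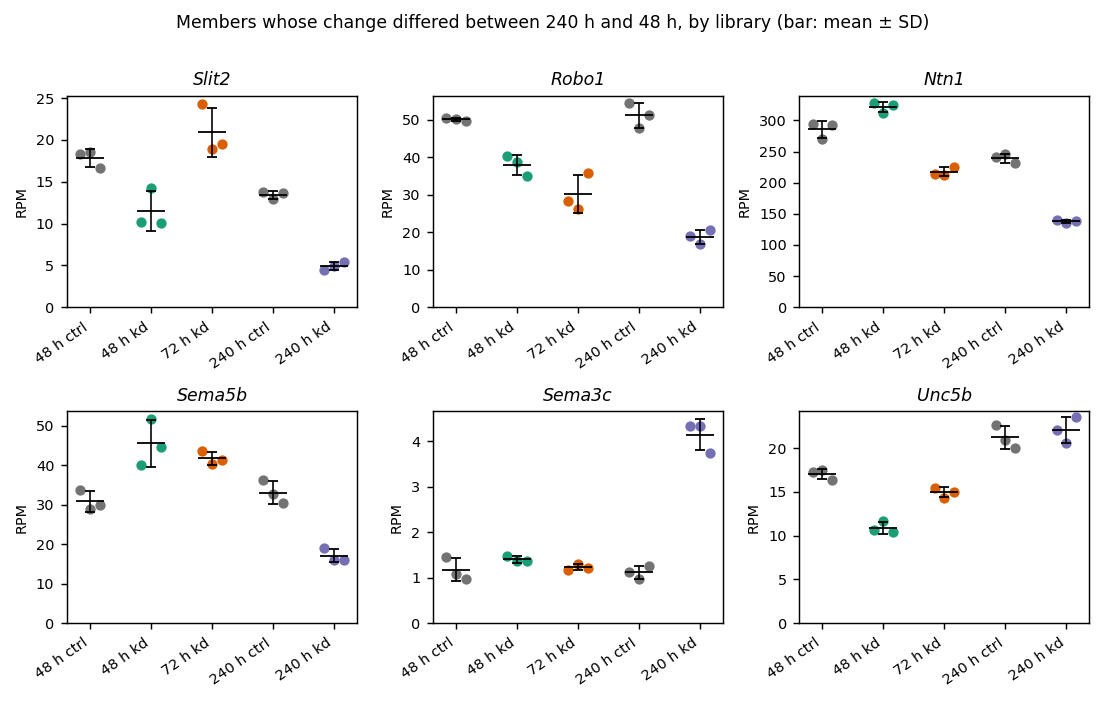
RPM (vertical axes starting at 0) by library and group for 6 members whose knockdown effect differed between 240 h and 48 h, with mean and SD as black bars (n = 3). Slit2, Robo1, Ntn1 and Sema5b were lowest in the 240 h kd libraries, Sema3c was raised in these alone, and Unc5b was lowest in 48 h kd.

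The wider guidance pathway was examined with a pair of gene lists. Of 27 further cues, receptors and co-receptors, 24 were tested, and 3 (2 higher), 6 (2 higher) and 6 (4 higher) were called at 48 h, 72 h and 240 h, which is 12.5%, 25% and 25% beside 9.2%, 22.3% and 17.1% of all genes. The shares at 48 h and 72 h were thus near those of all genes. Dscaml1, a homophilic adhesion molecule, rose at each time, by 0.64 ± 0.17, 1.49 ± 0.12 and 0.75 ± 0.15. Rgma, a ligand of the netrin receptor relative Neo1, rose at 48 h by 0.93 ± 0.19 and at 72 h by 0.81 ± 0.20, and Cntn2, an axonal adhesion molecule, fell at 48 h by 0.64 and at 240 h by 0.76. The receptor phosphatase gene Ptprd fell at 72 h (-1.12) and rose at 240 h (1.01), and Dscam and Ntng2 changed at 72 h by -1.80 and -1.34 and Islr2 at 240 h by -0.84. Dscam and Ntng2 had only 2 to 8 and 5 to 8 reads per 72 h kd library, beside 14 to 18 and 16 to 18 in 48 h ctrl. The calls of list genes were not checked by leaving out single libraries.

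All 56 intracellular effectors of guidance receptors were tested. At 48 h 11 were called and all were lower (19.6%), at 72 h 15 (14 lower, 26.8%) and at 240 h 13 (10 lower, 23.2%). Of all genes 9.2%, 22.3% and 17.1% were called, with 4.84%, 10.2% and 8.03% lower, so the total shares at 72 h and 240 h were near those of all genes. Ablim1, an actin-binding protein, fell most, with changes of -2.43 ± 0.10 (SE, limma adjusted p = 1.6e-08), -3.45 ± 0.12 (SE, limma adjusted p = 1.8e-17) and -3.88 ± 0.12 (SE, limma adjusted p = 6.5e-14). Dpysl3, a collapsin response mediator that acts on the cytoskeleton, changed by -1.37 ± 0.068, -2.75 ± 0.068 and -2.39 ± 0.065. The guanine nucleotide exchange factor genes Kalrn and Arhgef28 fell as well, with changes of -1.47, -1.41 and -0.95 and of -1.14, -1.19 and -1.09, and Farp1 was lower at 48 h (-1.15). Pak3, a kinase downstream of Rac, was among the 3 that rose at 240 h (0.98 ± 0.16). The median change of the 56 was -0.17, -0.08 and -0.04. Between the control groups none of the 24 further cues was called by limma, with 6 at an unadjusted p under 0.05, and 1 effector, Ngef, was lower at 240 h. The effect at 240 h differed from that at 48 h for 4 of the further cues (16.7%) and 8 of the effectors (14.3%), beside 10.5% of all genes.

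Markers of other cell types moved beside these genes, and their part in the members' changes was not tested. All 7 ESC markers (Pou5f1, Nanog, Sox2, Zfp42, Esrrb, Dppa5a and Tdgf1) were tested and summed to 4782 to 5376 RPM per ctrl library, 4943 to 5583 at 48 h kd, 5961 to 6152 at 72 h kd and 4362 to 4444 at 240 h kd. None of the 7 was at 0 reads in any group. Dppa5a rose at 72 h, and Esrrb and Zfp42 fell at 240 h, by 0.80 and 0.58. Of 10 neural markers 8 were tested and 4, 6 and 4 were called. Sox1 rose at each time, by 1.56 at 240 h, the others called at 48 h and 72 h fell, and at 240 h Nes rose while Elavl3 and Rbfox3 fell. Neurog2 had 0 reads except at 240 h kd, and Dcx had 0 reads at 48 h ctrl and 72 h kd. The sum of the 10 was 501 to 565 RPM over ctrl, 531 to 591 RPM over 48 h kd, 550.0 to 560 RPM over 72 h kd and 635 to 661 RPM over 240 h kd libraries. The sum of 6 trophoblast markers, 3 of them tested, was 64.4 to 84.6 RPM in ctrl. It was 50.6 to 54.6 at 48 h kd, 148 to 154 at 72 h kd and 109 to 114 at 240 h kd. Cdx2, Elf5, Gata3, Krt7 and Hand1 each had at most 0.547 RPM at 72 h kd and at most 3.86 RPM at 240 h kd. Nearly all of the sum was thus Tfap2c. Krt7 and Tfap2c fell at 48 h, Krt7 fell and Tfap2c rose at 72 h, and Hand1, Krt7 and Tfap2c rose at 240 h. Hand1 had 40 to 56 reads per library at 240 h kd and 0 to 8 elsewhere, and Krt7 had 27 to 32 and 1 to 12. Hand1 and Krt7 reached the minimum mean of 10 reads only through the 240 h kd libraries, so this filter favoured their rise. The sum of 6 primitive endoderm markers, 4 tested, went from 10.6 to 11.2 RPM over the 240 h ctrl and from 12.9 to 14.3 RPM over the 240 h kd libraries, with Gata6 and Pdgfra higher and Sox7 lower. It was 7.85 to 8.74 RPM over 48 h ctrl, 5.47 to 6.68 RPM over 48 h kd and 5.67 to 7.38 RPM over 72 h kd, with Sox7 lower at both times. The 5 fibroblast markers, 2 tested, summed to 7.74 to 8.69 RPM over the 240 h ctrl and to 18.3 to 22.3 RPM over the 240 h kd libraries, with Col1a1 higher by 1.79 and Postn at 0 reads in both ctrl groups and 48 h kd. In the 48 h ctrl, 48 h kd and 72 h kd libraries the sum stayed between 5.54 and 7.90 RPM, with Col1a1 higher and Thy1 lower in both kd groups. The 3 glial markers summed to at most 4.05 RPM and the 4 mesoderm markers to at most 2.58 RPM in every library. Sox10 was higher at 72 h and 240 h. Tbx6, the only 1 of the 4 mesoderm markers tested, was higher at 48 h and 72 h, where the 4 together had at most 2.13 and 1.94 RPM. At this level Tbx6 may have reached the minimum mean of 10 reads only through those kd groups.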

How the data were processed

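According to the labels and the study's methods, single-end reads were sequenced and aligned to GRCm38 (mm10) by the authors. The submitters' processing notes name STAR 2.7.0c, DESeq2 1.30.0 and R 4.0.3. For the FPKM values no annotation is given in the sources used here, and a GENCODE release is named only for assigning ChIP-seq peaks to genes. The deposited values are FPKM, computed by the authors per gene and library. Multiplying them by the whole gene span and the library total gave whole reads for 100% of values (tolerance 0.001), so the whole span, introns included, was the length used. Whether intronic reads were counted and strand was used is not given in the sources used here, so overlapping genes are uncertain. The recovered reads of all listed genes summed to 7.38% to 8.34% more than the library totals. Some reads may thus have been counted for more than 1 gene, which was not tested. Of the listed genes, 53297 (96.5%) matched GENCODE release 21 for mouse (M21), among them all 72 members.

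Reads were divided by library totals (RPM), since FPKM per span with a pseudocount flattens long genes. The functions lmFit and eBayes (trend option) of limma 3.58.1 were run under R 4.3.3 on log2(RPM + 0.1) for the 16370 genes that averaged 10 reads or more, using the 6 libraries of each comparison or 12 for the interaction, with Benjamini-Hochberg adjustment over all of them. Differences are on the log2(RPM + 0.1) scale and understate changes of low genes. The scripts were tested on simulated data. Members and gene lists were chosen with earlier results of these data known. Library values were given for the 24 members with the smallest adjusted p in any knockdown comparison among the 36 called, and for lists up to 4 called genes per comparison with the largest change. Alternatives were other pseudocounts, the FPKM scale, filters, scalings, limma voom on the recovered reads, 1 fit of all libraries, a replicate block, no minimum change and leaving out each library. Python 3.11.15 was used for tables and figures.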

Additional observations from a re-analysis of the deposited data

Results flagged for a closer look

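For 16 members the knockdown effect at 240 h differed from that at 48 h by the interaction test of limma over 12 libraries. The differences of log2 changes (240 h minus 48 h) were positive for Sema3c (1.55), Epha8 (1.03), Ntn3 (0.90), Sema6a (0.80), Epha1 (0.76), Sema3e (0.71), Efnb2 (0.70), Unc5b (0.70) and Plxnd1 (0.69). They were negative for Sema5b (-1.51), Nrp2 (-1.05), Robo1 (-1.05), Ntn1 (-0.97), Ephb3 (-0.84), Sema4a (-0.83) and Slit2 (-0.80). The limma adjusted p lay between 5.2e-09 for Ntn1 and 0.0444 for Plxnd1. Epha1 and Sema4a were called in neither knockdown comparison alone: Epha1 had log2 changes of -0.45 ± 0.097 at 48 h and 0.31 ± 0.10 at 240 h, and Sema4a of 0.35 ± 0.078 and -0.48 ± 0.11. The differences of Epha8, Plxnd1 and Ntn3 were lost when single libraries were left out, in 9 of 12, 9 of 12 and 7 of 12 cases, with limma adjusted p of up to 0.110, 0.123 and 0.110. Epha1 overlaps Zyx, which had a mean of 423 reads against 204 for Epha1.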

How the results depend on the processing

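On the log2(FPKM + 0.1) scale, 19 to 22 members passed a mean of 0.5 FPKM. There 0, 4 and 7 members were called at 48 h, 72 h and 240 h, 0 between the controls and 5 for the interaction. Beside these, 3.99%, 13.5%, 8.91%, 0.475% and 5.82% of all genes on that scale were called. The filter and the pseudocount changed together and fewer members were tested, and the cause of the lower counts was not tested. At an unadjusted p under 0.05 there were 10 members at 48 h and 6 between the controls. Without a minimum change 28, 40 and 38 of the 53 members were called, and 10 between the controls, beside 25.8%, 61.4%, 45% and 12.6% of all genes. With a minimum mean of 50 reads, which 38 members passed, 15 were called at 240 h, beside 12.8% of all genes. Between the controls, 0 members were called without a trend in the variance (17 at an unadjusted p under 0.05), beside 0% of all genes. There were 2 in 1 fit of all libraries and 4 with the replicate block, beside 1.56% and 2.05% of all genes. When single libraries were left out, the counts were 12 to 15 at 48 h, 19 to 22 at 72 h and 21 to 25 at 240 h. They were 1 to 2 between the controls (2 without 240 h ctrl replicate 2 or 3) and 13 to 18 for the interaction. Of all genes 7.51% to 9.62%, 21.6% to 22.3%, 15.9% to 17.2%, 0.58% to 1.89% and 9.11% to 10.8% were called in the respective comparisons. None of the 77 called changes of members reversed in any alternative: 56 kept their call in all alternatives in which they were tested and 21 lost it in at least 1. Correlations of the deviations of same-numbered libraries lay between -0.19 and 0.17 and exceeded 0.1 for all 3 numbers in no comparison, so the numbers were not taken as pairs, although 2 of the 3 exceeded it between the controls (0.17 and 0.13). With the replicate block 15, 20 and 24 members were called after knockdown and 15 for the interaction, beside 8.67%, 22.2%, 17.2% and 10.3% of all genes. Depth limits members with few reads: those under 10 reads on average were not tested.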

Other observations

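The 19 members under the minimum of 10 reads hold several receptors known from neurons. Of the 16 of these with a mean of at least 1 read, 13 (81.2%) had their highest group mean at 240 h kd, which was also the case for 32.7% of all 7294 listed genes with a mean of 1 to 10 reads and for 26.4% of the followed members. Robo2, a Slit receptor, had 15 to 16 reads per library at 240 h kd and 1 to 7 in all others, and Sema3a, a secreted repellent, had 10 to 16 and 0 to 4. Dcc, the attractive netrin receptor, had 7 to 16 reads at 240 h kd and 1 to 5 elsewhere, and Nrp1, the co-receptor of Sema3a, 7 to 19 and 0 to 7. These members were picked after their values were seen and were not tested. The 240 h kd libraries also listed the most genes above 0, 26393 to 26535, beside 24684 to 25836 in the others. Plxnb3 was the exception with the highest values at 72 h kd, 9 to 19 reads beside 0 to 7 elsewhere, and Sema3g and Ntn4 were not highest at 240 h kd either.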
